A study of Mus musculus with 10 samples.

Results

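The genes of the integrins, the laminins and their basement membrane partners were followed in inflamed mouse skin. Of the 19175 genes in the table, 38 with a symbol naming an integrin alpha or beta chain, a laminin chain, a nidogen or perlecan are described. They were chosen by symbol, not by level, and Itga2b was left out. There were 25 integrin genes and 13 genes of laminins, nidogens and perlecan. Integrins are receptors of 1 alpha and 1 beta chain that span the cell membrane and tie the cell skeleton to the matrix or to other cells. Laminins are secreted trimers of an alpha, a beta and a gamma chain that form the sheet of the basement membrane, and nidogens and perlecan link that sheet to its collagen. In skin, basal keratinocytes sit on a laminin sheet through integrins, while leukocytes use another set of integrins to leave vessels and to hold on to epithelium.

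Poly(A) RNA of skin from 10 C57BL/6 samples was compared, 5 from mice labelled as a conditional VAMP7 knockout in basophils (CKO) and 5 from mice labelled Flox, which the treatment label calls WT. The series' design text counts 6 samples in total yet names 5 of each kind, and the 10 labelled samples were used. VAMP7 is a SNARE protein of secretory vesicles. The series title places all samples in the MC903 model, in which the vitamin D analogue calcipotriol causes dermatitis, so no sample shows untreated skin. No source used here gives the Cre driver, the dose, the days of treatment or the age of the mice, or says that the samples came from separate animals. The p-values thus cover only the spread between these samples, and part of it may be technical.

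Levels are FPKM, the reads of a gene scaled to its length and to the mapped total of the library. They summed to 545276 to 581022 FPKM in CKO libraries and to 525369 to 578568 FPKM in Flox libraries. Errors are SD with n = 5 per group, and log2 fold changes are CKO over Flox on log2(FPKM + 1), which understates changes of low genes. The tissue label was checked against basal keratinocyte markers, which summed to 3770 to 5110 FPKM in CKO and 3700 to 5230 FPKM in Flox. The targeted gene Vamp7 was at 17.3 to 19.2 FPKM in CKO, against 18.1 to 22.5 FPKM in Flox, and since other skin cells express it, this does not check the labels. CKO replicate 1 stood apart. Its 8 T cell markers summed to 33.0 FPKM, while the remaining CKO libraries had 63.6 to 96.6 and the Flox libraries 70.5 to 93.8. Its skeletal muscle markers summed to 1250 FPKM, with 321 to 763 in CKO replicates 2 to 5 and 205 to 361 in Flox libraries. Its fibroblast markers summed to 3760 FPKM, with 4820 to 6030 and 4830 to 6160 FPKM in the same libraries. Of these markers, Col1a1, Col1a2, Col3a1, Lum and Dpt were lower there than in any other library. Dcn, at 1973.97 FPKM, was within the range of both groups, and Pdgfra, at 34.81 FPKM, was within the Flox range. In such whole tissue, fewer cells of a type and less RNA per cell cannot be told apart.

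The widely expressed beta chain Itgb1, the partner of most matrix-binding alpha chains, had the highest level of the 38 genes in every library, at 158 to 194 FPKM in CKO and 168 to 193 FPKM in Flox. A group of 21 members averaged over 10 FPKM, and 33 had at least 1 FPKM in every library. Lama1, a laminin chain best known from early embryos, had 0.06 to 0.08 FPKM in CKO libraries and 0.05 to 0.08 FPKM in Flox libraries. Itgad, a leukocyte alpha chain, was at 0.03 to 0.44 and 0.10 to 0.32 FPKM. These last genes were below the minimum of 1 FPKM in at least 5 libraries, so 36 members were tested.

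**Figure D1:**
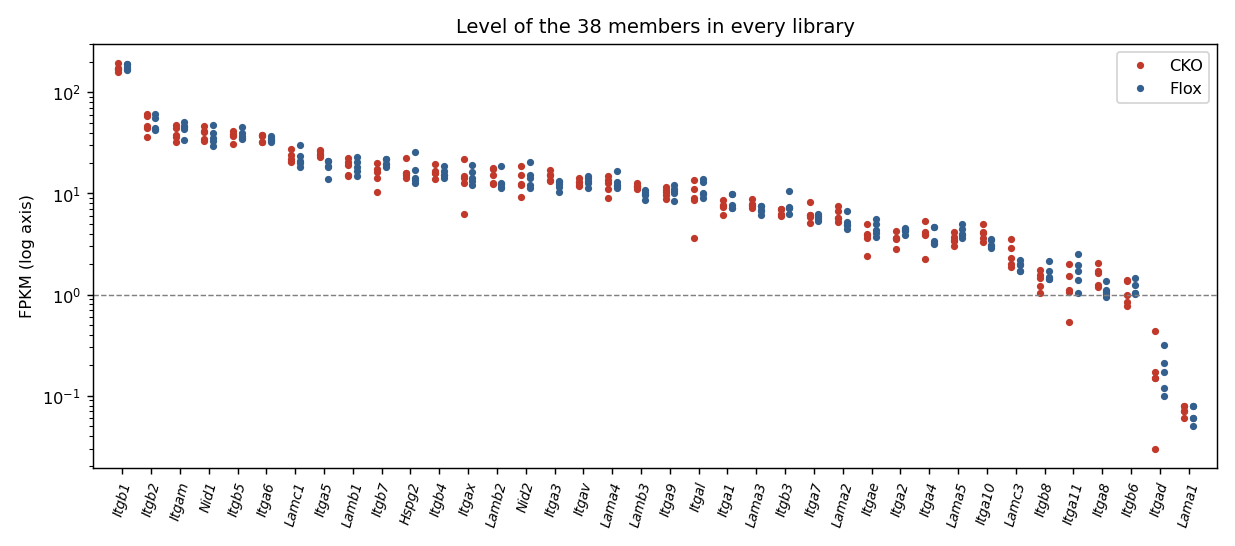
FPKM (log axis) of the 38 integrin, laminin, nidogen and perlecan genes in each library, CKO left and Flox right of each position, ordered by the mean of all libraries; the dashed line marks 1 FPKM. Itgb1 stands above all others at 158 to 194 FPKM in CKO, against 168 to 193 FPKM in Flox, and Itgad and Lama1 lie under the line.

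No member rose or fell past the threshold. In limma, 0 of 36 passed at an adjusted p under 0.05 over all genes tested, against 0.106% of all genes tested, of which 0.0455% rose and 0.0607% fell. At an unadjusted p under 0.05 there were 9 members, 6 with higher levels in CKO and 3 with lower levels. Over all genes tested, 4.78% were higher and 10.3% were lower at that p, and 15.1% were either. For 3 members, Lamb3, Itga3 and Itga5, every CKO library lay above every Flox library, against 1.24% of all genes tested. For 0 members did every CKO library lie below, against 3.00%, and no overlap in either direction held for 4.23%. A log2 fold change below 0 was found for 20 of the 36 members and for 60.5% of all genes tested. The median log2 fold change was -0.021 over the 36 members and -0.027 over all genes tested. All 36 had a log2 fold change of less than 0.5 in size, and for 27 the 95% interval spanned 0.

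Lama3 and Lamb3 encode an alpha and a beta chain of the laminin of the epidermal anchoring zone, which basal keratinocytes make. Both averaged higher in CKO, by 1.13 and 1.20 times, and neither passed the adjusted threshold. Lamb3, the beta chain, was at 12.8, 11.8, 11.1, 11.7 and 11.8 FPKM in CKO, against 10.3, 9.61, 9.79, 8.63 and 10.9 FPKM in Flox. The groups met without overlap, with CKO replicate 3 the lowest of its group and Flox replicate 5 the highest of its own. The log2 fold change was 0.25 (SE 0.062, limma adjusted p = 0.135), a 1.20-fold higher mean. Lama3, the alpha chain, was at 7.22, 7.80, 8.82, 7.68 and 7.55 FPKM in CKO, against 6.10, 7.46, 6.90, 6.66 and 7.56 FPKM in Flox. Here the groups overlapped, because Flox replicates 2 and 5 reached the CKO range (log2 fold change 0.15, SE 0.067, limma adjusted p = 0.322). The proportions of the chains overlapped as well, with a ratio of Lama3 to Lamb3 of 0.662 ± 0.0824 in CKO and 0.708 ± 0.0749 in Flox. Of the 6 basal keratinocyte markers 0 reached an unadjusted p under 0.05 in limma, against 15.1% of all genes tested. Their median log2 fold change was 0.024.

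After FPKM were rescaled to equal library totals, 0 members were without overlap. The rescaled levels of Lamb3 were 11.0 to 12.4 in CKO and 8.80 to 11.6 in Flox, those of Itga3 13.0 to 16.5 and 10.1 to 13.9, and those of Itga5 22.4 to 27.1 and 13.5 to 22.5. Their log2 fold changes were then 0.23 for Lamb3, 0.26 for Itga3 and 0.41 for Itga5, so the separation of the 3 genes depended on the scaling while the size of the difference hardly moved.

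Of the 38 members, 24 had a promoter window of 250 bases before to 50 bases after a start in the RefSeq table (GRCm38.p6), 27 windows in all. The 250 bases before the start are shown for the 3 genes without overlap, since these had the most distinct levels. Capitals mark GGGCGG, the letters of the SP1 motif, or its reverse complement.
Lamb3, chr1:193301744-193301993, plus strand: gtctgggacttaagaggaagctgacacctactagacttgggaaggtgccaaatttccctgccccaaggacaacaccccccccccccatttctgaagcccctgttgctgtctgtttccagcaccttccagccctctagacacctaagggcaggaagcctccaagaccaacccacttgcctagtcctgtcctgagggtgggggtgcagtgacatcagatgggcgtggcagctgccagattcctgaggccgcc
Itga3, chr11:95076715-95076964, minus strand: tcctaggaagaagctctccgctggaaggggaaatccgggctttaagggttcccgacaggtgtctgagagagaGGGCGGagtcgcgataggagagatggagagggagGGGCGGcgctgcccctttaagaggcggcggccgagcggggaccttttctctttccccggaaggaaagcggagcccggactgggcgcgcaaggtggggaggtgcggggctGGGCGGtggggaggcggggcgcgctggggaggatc
Itga5, chr15:103366792-103367041, minus strand: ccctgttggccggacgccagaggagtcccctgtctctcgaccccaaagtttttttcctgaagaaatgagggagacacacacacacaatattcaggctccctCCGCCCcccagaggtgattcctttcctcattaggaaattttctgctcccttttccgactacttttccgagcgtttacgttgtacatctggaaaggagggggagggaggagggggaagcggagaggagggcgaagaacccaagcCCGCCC
On both strands, and with each motif counted on its own whether or not it overlaps another, GGGCGG was in 14 of the 27 member windows, against 35.7% of 32851 windows of all genes. The Itga3 window shown holds 3 matches, that of Itga5 holds 2 and that of Lamb3 holds 0. TGANTCA, the letters of the AP-1 motif, was in 3 of 27 windows, against 7.81% of all. These were windows of Itga9, Itgax and a second, downstream start of Itga3 that is not shown. GAGGAA, a core that the myeloid factor PU.1 binds, was in 14 of 27, against 28.3%, with 3 matches in the window of Itgam, and TATAAA was in 0 of 27, against 13.6%. A match describes the letters and is no proof of binding.

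**Figure D2:**
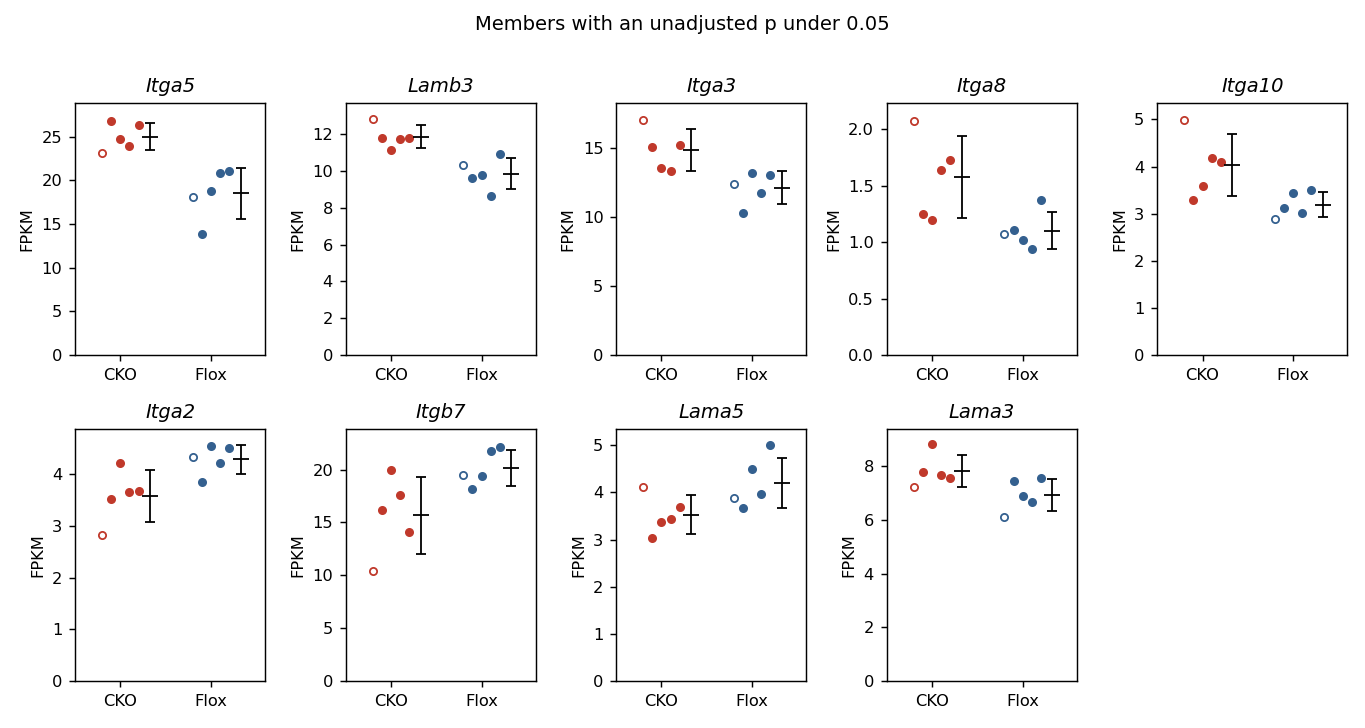
FPKM per library of the 9 members with an unadjusted p under 0.05, ordered by p; CKO left in red, Flox right in blue, replicate 1 of each group as an open circle, and the black bar is the mean with its SD (n = 5). For Itga5, Lamb3 and Itga3 every CKO library lies above every Flox library, while the other 6 genes overlap.

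The other laminin chains belong to the basement membranes of vessels, nerve, muscle and epidermis. Lama5, the alpha chain of the laminin found under epithelium and endothelium, was at 4.12, 3.03, 3.38, 3.43 and 3.69 FPKM in CKO, against 3.89, 3.66, 4.49, 3.96 and 5.00 FPKM in Flox. CKO replicates 1 and 5 reached into the Flox range (log2 fold change -0.20, SE 0.085, limma adjusted p = 0.311). Its ratio to Lamc1, the common gamma chain it assembles with, was 0.156 ± 0.0281 in CKO and 0.189 ± 0.0249 in Flox. Lama4, the alpha chain of vessel walls, was at 9.03, 12.7, 13.6, 11.0 and 15.0 FPKM in CKO, against 11.8, 11.4, 12.1, 13.1 and 16.6 FPKM in Flox. Replicate 5 was the highest library of each group and CKO replicate 1 the lowest of all, and the interval of -0.38 to 0.21 spans 0. Lama2, the chain of muscle and nerve basement membrane, was at 5.17 to 7.59 FPKM in CKO, against 4.48 to 6.73 FPKM in Flox (log2 fold change 0.21, SE 0.11, limma adjusted p = 0.409). Of the skeletal muscle markers, all 10 tested had an unadjusted p under 0.05, against 15.1% of all genes tested, and 0 passed in limma. Their median log2 fold change was 0.97, or 0.62 without CKO replicate 1. Their part in the level of Lama2 was not tested.

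Among the beta and gamma chains, Lamb1, the partner of Lama4 and Lama5, was at 14.8, 20.65, 19.2, 15.2 and 22.5 FPKM in CKO, against 18.2, 14.9, 16.6, 20.6 and 22.9 FPKM in Flox. The groups covered the same range, with an interval of -0.32 to 0.29 on the log2 scale. Lamc1 was at 20.9, 23.8, 21.9, 20.55 and 27.7 FPKM in CKO, against 21.1, 18.3, 19.85, 23.4 and 30.3 FPKM in Flox. The groups overlapped, with replicate 5 the highest of each and an interval of -0.25 to 0.32. The ratio of Lamb1 to Lamc1 was 0.801 ± 0.0758 and 0.831 ± 0.0490. Lamb2, the beta chain of muscle, nerve and vessel basement membranes, was at 12.4 to 17.7 FPKM in CKO, against 11.4 to 18.7 FPKM in Flox. Lamc3, a gamma chain of low level here, was at 1.87 to 3.51 FPKM in CKO, against 1.71 to 2.19 FPKM in Flox, with a log2 fold change of 0.25 (SE 0.12, limma adjusted p = 0.351). CKO replicate 1 was its highest library, and without it the log2 fold change was 0.16.

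Nidogens and perlecan differed more between libraries of a group than between the groups. Nid1, which bridges laminin and type IV collagen, was at 32.9, 41.6, 40.15, 34.8 and 46.6 FPKM in CKO, against 35.1, 29.75, 33.4, 39.4 and 47.3 FPKM in Flox. Replicate 5 was again the highest in each group, and the 95% interval was -0.19 to 0.37. Its relative Nid2 was at 9.25 to 18.8 FPKM in CKO, against 11.4 to 20.3 FPKM in Flox, with an interval of -0.53 to 0.30. Hspg2, which encodes the heparan sulfate proteoglycan perlecan, was at 14.3 to 22.4 FPKM in CKO, against 12.6 to 25.8 FPKM in Flox, with an interval of -0.37 to 0.44.

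Lama4, Lamb1, Lamc1, Nid1, Nid2 and Hspg2 were each highest in replicate 5 of both groups, and they are named together for that. In all, 13 of the 36 tested members were highest in replicate 5 of both groups, Itgb1, Itgb5 and Itgav among them, against 11.1% of all genes tested. The median deviation of the 36 members from their group mean was 0.10 in CKO replicate 5 and 0.21 in Flox replicate 5 on the log2 scale. Over the same members, CKO replicate 5 was the highest CKO library for 15 and Flox replicate 5 the highest Flox library for 27, against 19.7% and 33.1% of all genes tested. Endothelial markers summed to 144 FPKM in CKO replicate 5, with 109 to 122 in CKO replicates 1 to 4. They summed to 159 FPKM in Flox replicate 5, with 106 to 129 in Flox replicates 1 to 4. Pericyte and smooth muscle markers were also highest there, at 199 FPKM against 130 to 178, and 220 FPKM against 160 to 195. So was the sum of fibroblast markers, at 6030 FPKM against 3760 to 6010, and 6160 FPKM against 4830 to 5970. The single fibroblast markers differed. Dcn, Lum and Dpt were lower in Flox replicate 5 than in any other Flox library, at 1706.52, 592.07 and 153.92 FPKM. Col1a1, Col1a2 and Col3a1 were highest of Flox there, at 854.68, 971.62 and 1828.99 FPKM, and Pdgfra equalled Flox replicate 4. In CKO replicate 5, Dpt, Col1a2, Col3a1 and Pdgfra were highest of CKO, while Dcn, Lum and Col1a1 were not. Schwann cell and nerve markers were at 67.4 FPKM against 49.0 to 66.8, and 66.4 FPKM against 51.6 to 58.4. The part of these cells in the basement membrane values was not tested.

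**Figure D3:**
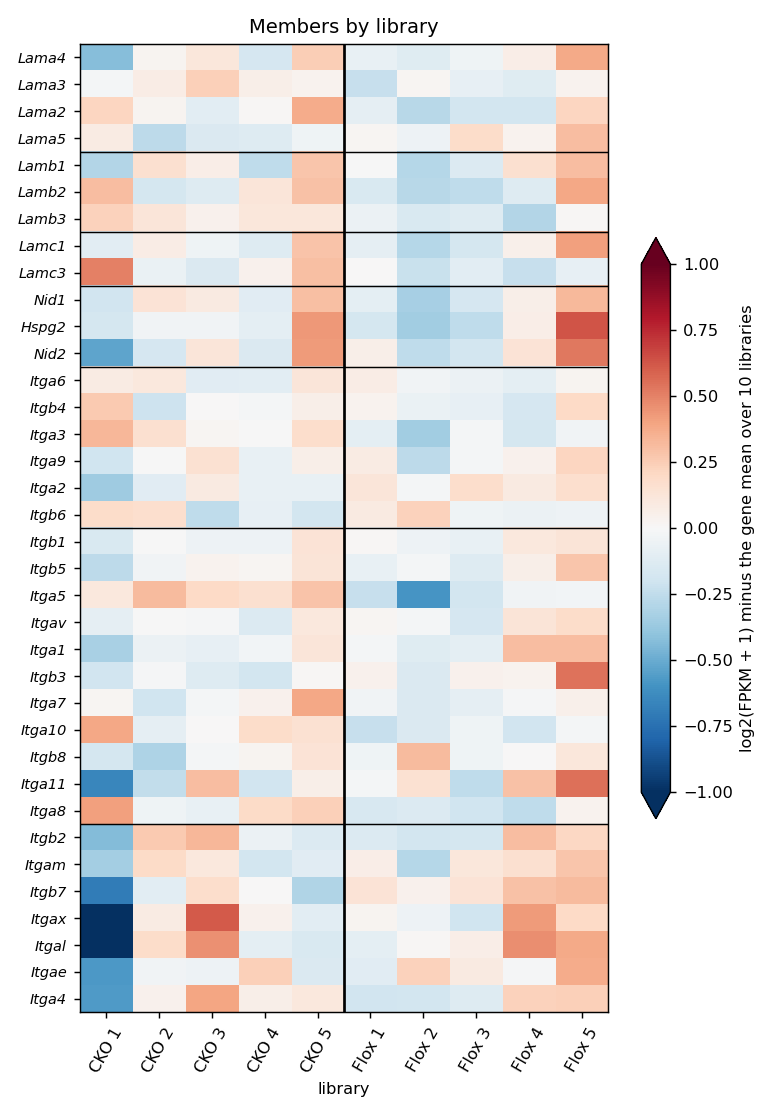
Level of each tested member in each library, as log2(FPKM + 1) minus its mean over the 10 libraries, with CKO libraries left of the black line and Flox libraries right; horizontal lines part the laminin alpha, beta and gamma chains, nidogens and perlecan, keratinocyte integrins, other integrins and leukocyte integrins, from top to bottom. Leukocyte integrins are at their lowest in CKO replicate 1, and Nid1, Nid2 and Hspg2 are red in replicate 5 of both groups.

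Keratinocyte integrins had log2 fold changes on both sides of 0, with 3 of 6 above it and a median of 0.005. Itga6 and Itgb4 form the laminin receptor of hemidesmosomes, the rivets that hold basal cells to the basement membrane. Itga6 was at 36.9, 37.65, 32.2, 32.3 and 38.05 FPKM in CKO, against 36.7, 34.1, 33.5, 32.5 and 35.6 FPKM in Flox. The groups overlapped almost fully, with an interval of -0.10 to 0.17, and Itgb4, at 13.8 to 19.5 and 14.15 to 18.6 FPKM, had an interval of -0.17 to 0.24. The ratio of Itga6 to Itgb4 was 2.19 ± 0.334 in CKO and 2.18 ± 0.148 in Flox.

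Itga3, the alpha chain of the other laminin receptor of basal keratinocytes, was at 17.1, 15.1, 13.6, 13.3 and 15.3 FPKM in CKO, against 12.4, 10.3, 13.2, 11.7 and 13.0 FPKM in Flox. The groups did not overlap, though the lowest CKO library was only just above the highest Flox library. The means were 14.9 ± 1.51 and 12.1 ± 1.18 FPKM, with a log2 fold change of 0.27 (SE 0.081, limma adjusted p = 0.184). Itga2, the alpha chain of a collagen receptor, was at 2.83, 3.53, 4.22, 3.65 and 3.67 FPKM in CKO, against 4.33, 3.85, 4.54, 4.22 and 4.5 FPKM in Flox. Most CKO libraries lay below the Flox range, and CKO replicate 3 lay inside it (log2 fold change -0.21, SE 0.079, limma adjusted p = 0.259). Itga9, which binds tenascin, was at 8.86 to 11.55 FPKM in CKO, against 8.45 to 12.2 FPKM in Flox. Itgb6, an epithelial chain that activates latent TGF-beta, was at 0.77 to 1.39 and 1.02 to 1.47 FPKM, and both intervals spanned 0.

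Of the stromal, vascular, muscle and widely expressed integrins, 4 of 11 had a log2 fold change above 0, against 39.5% of all genes tested. Itga5, which pairs with Itgb1 as the main fibronectin receptor, had the largest log2 fold change of the 36 members on log2(FPKM + 1). With a pseudocount of 0.1 it was 0.44, and the low genes Itga11 and Itga8 were at -0.49 and 0.46. Itga5 was at 23.15, 26.8, 24.7, 24.0 and 26.35 FPKM in CKO, against 18.1, 13.9, 18.8, 20.9 and 21.0 FPKM in Flox. Every CKO library lay above every Flox library, and Flox replicate 2 was the lowest. The means were 25.0 ± 1.56 and 18.5 ± 2.91 FPKM, 1.35-fold higher in CKO, with a log2 fold change of 0.43 (SE 0.10, 95% interval 0.20 to 0.65, limma adjusted p = 0.129). Its partner Itgb1 was at 158, 176, 169.9, 170.2 and 194 FPKM in CKO, against 178, 169.9, 168, 189.7 and 193 FPKM in Flox. Those groups covered the same range, with an interval of -0.19 to 0.10.

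Itga8, a receptor chain of smooth muscle and other mesenchymal cells, was at 2.07, 1.25, 1.20, 1.64 and 1.73 FPKM in CKO, against 1.07, 1.11, 1.02, 0.94 and 1.37 FPKM in Flox. Flox replicate 5 lay within the CKO range (ratio of means 1.43, log2 fold change 0.29, SE 0.10, limma adjusted p = 0.232). Itga10, a collagen receptor chain known from cartilage, was at 4.99, 3.29, 3.59, 4.19 and 4.09 FPKM in CKO, against 2.89, 3.13, 3.43, 3.01 and 3.51 FPKM in Flox. CKO replicate 2 lay inside the Flox range (log2 fold change 0.26, SE 0.089, limma adjusted p = 0.233). For both genes CKO replicate 1 was the highest library.

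The other 7 integrins of this group had intervals that spanned 0. Itgav, the alpha chain of receptors for vitronectin and latent TGF-beta, was at 11.7 to 14.1 FPKM in CKO, against 11.5 to 14.95 FPKM in Flox. Its partner Itgb5 was at 31.2 to 41.1 and 34.4 to 45.8 FPKM. Itgb8, another partner of Itgav, was at 1.03 to 1.75 FPKM in CKO, against 1.43 to 2.13 FPKM in Flox. The collagen receptor chains Itga1 and Itga11 were at 6.07 to 8.61 and 0.54 to 2.01 FPKM in CKO, against 7.12 to 9.96 and 1.04 to 2.55 FPKM in Flox. Itga7, the laminin receptor chain of skeletal muscle, was at 5.08 to 8.16 FPKM in CKO, against 5.31 to 6.25 FPKM in Flox, with a log2 fold change of 0.090 (SE 0.096). Without CKO replicate 5 it was 0.0039, and without CKO replicate 2 it was 0.15. Itgb3 was at 6.01 to 7.08 FPKM in CKO, against 6.24 to 10.7 FPKM in Flox (log2 fold change -0.21, SE 0.11, limma adjusted p = 0.423), and without Flox replicate 5, its highest library, the log2 fold change was -0.10. Its partner on platelets, Itga2b, which basophils also carry, is no member and fell to 6.68 ± 1.69 FPKM in CKO, against 14.2 ± 1.44 FPKM in Flox (log2 fold change -1.01, limma adjusted p = 0.0463). The other tested platelet markers, Pf4, Gp1bb and Ppbp, overlapped between CKO and Flox. The median log2 fold change of the 9 basophil markers was -1.05. The part of either cell type in the level of Itga2b was not tested. The log2 fold change of Itga2b was -1.11 to -0.89 over 16 alternatives, and limma adjusted p was 0.00858 to 0.158. The call was lost in 10 of them: with no filter, with the replicate block, without CKO replicate 2, 3 or 4, and without any 1 of the 5 Flox libraries.

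**Figure D4:**
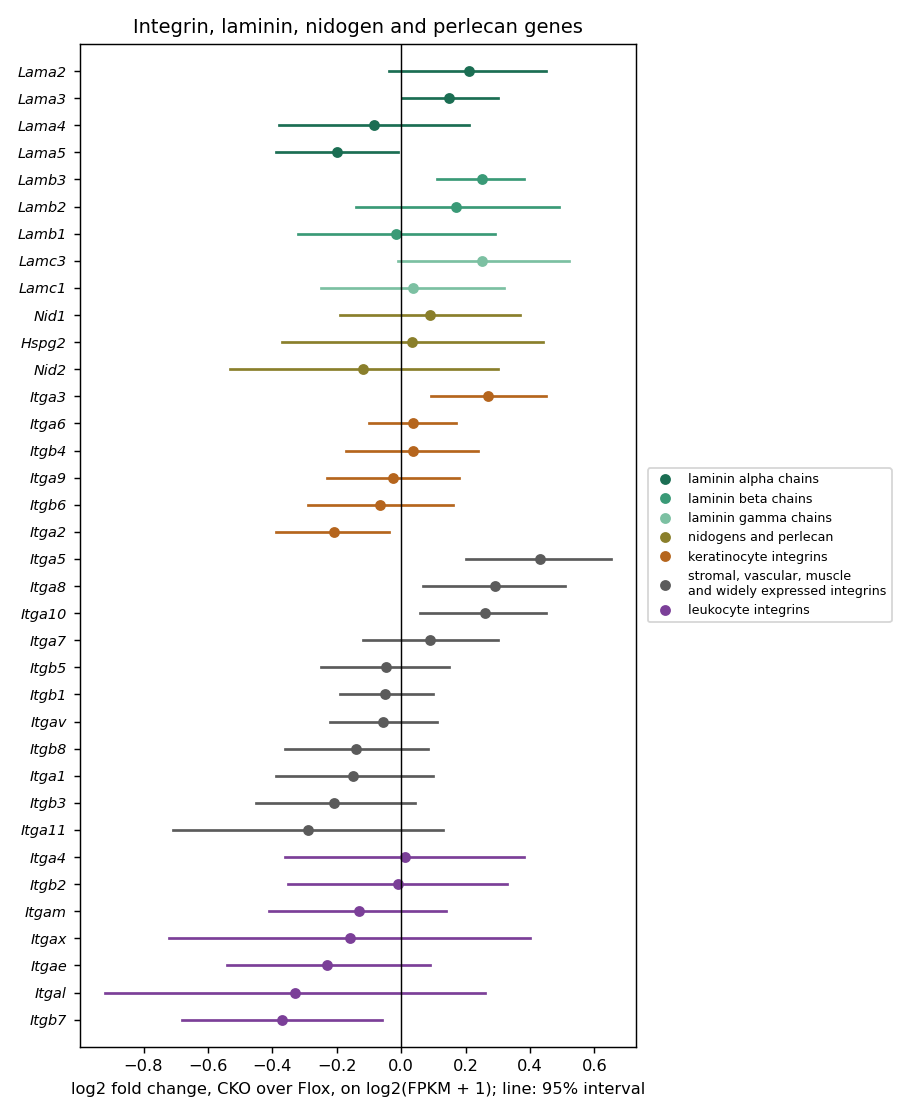
Log2 fold change (CKO over Flox, on log2(FPKM + 1)) of the 36 tested members with its 95% interval from limma, coloured by role. Lamb3, Itga3 and Itga5 lie farthest right of 0 relative to their intervals, and the leukocyte integrins Itgal and Itgax have the widest intervals.

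Leukocyte integrins were lowest in CKO replicate 1, for all 8 genes below every other library, which was so for 27.5% of all genes tested. Their levels summed to 93.4 FPKM there, with 126 to 172 FPKM in CKO replicates 2 to 5 and 126 to 171 FPKM in Flox libraries. Itgb2, the beta chain common to the adhesion receptors of T cells and myeloid cells, was at 35.9, 58.7, 61.7, 46.65 and 44.3 FPKM in CKO, against 44.2, 42.8, 43.0, 60.7 and 56.3 FPKM in Flox. Outside CKO replicate 1 the groups covered the same range, and the means were 49.4 ± 10.7 and 49.4 ± 8.44 FPKM (interval -0.35 to 0.33).

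The alpha chains that pair with Itgb2 differed in how far CKO replicate 1 stood out. Itgal, the chain of a leukocyte receptor for ICAM proteins, was at 3.60 FPKM there. It was at 8.63 to 13.7 FPKM in CKO replicates 2 to 5 and 8.98 to 13.8 FPKM in Flox libraries. Itgax, a chain of dendritic cells and some macrophages, was at 6.28 FPKM in CKO replicate 1, against 12.8 to 21.85 and 12 to 19. Itgam, the chain of neutrophils and macrophages, stood out less, at 32.5 FPKM against 36.4 to 47.55 and 33.8 to 50.4. Relative to Itgb2, Itgal was at 0.10 in CKO replicate 1, 0.190 to 0.222 in CKO replicates 2 to 5 and 0.203 to 0.237 in Flox libraries. Monocyte and macrophage markers summed to 3410 FPKM in that library, with 3510 to 4360 FPKM in CKO replicates 2 to 5 and 3640 to 4220 FPKM in Flox libraries. The single markers differed. Lyz2, Adgre1, Cd68 and Ccr2 were lower there than in any other library, while Mrc1, at 245 FPKM, was the highest of CKO. Without CKO replicate 1 the log2 fold change of Itgal was -0.066, against -0.33 with it, that of Itgam -0.066 against -0.13, and that of Itgax 0.077 against -0.16.

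Itgb7, the beta chain of gut-homing and epithelium-binding receptors of lymphocytes that mast cells and basophils also carry, was at 10.4, 16.2, 20.0, 17.6 and 14.1 FPKM in CKO, against 19.5, 18.1, 19.4, 21.7 and 22.15 FPKM in Flox. Apart from CKO replicate 3, every CKO library lay below the Flox range. The means were 15.7 ± 3.62 and 20.2 ± 1.71 FPKM, with a log2 fold change of -0.37 (SE 0.14, limma adjusted p = 0.264), and -0.24 without CKO replicate 1 (limma adjusted p = 0.309). Markers of basophils summed to 346 to 444 FPKM in CKO and 513 to 623 FPKM in Flox. That sum includes Cpa3, at 197 ± 11.9 and 204 ± 38.1 FPKM, and Hdc, at 95.4 ± 30.8 and 92.0 ± 14.8 FPKM. Mcpt8 was at 26.9 ± 14.7 FPKM in CKO and 139 ± 17.6 FPKM in Flox. Of the 9 basophil markers, 5 were lower in CKO without overlap, against 3.00% of all genes tested. Markers of dendritic and Langerhans cells summed to 40.0 to 55.1 FPKM in CKO and 46.3 to 57.1 FPKM in Flox. The part of these cells in the level of Itgb7 was not tested.

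Both alpha chains that pair with Itgb7 had intervals that spanned 0. Itgae, the chain of lymphocytes and dendritic cells in epithelium, was at 2.41 to 5.01 FPKM in CKO, against 3.69 to 5.59 FPKM in Flox. Itga4, which also pairs with Itgb1 to bind VCAM1, was at 2.23 to 5.29 FPKM in CKO, against 3.20 to 4.67 FPKM in Flox. The ratio of Itga4 to Itgb7 was 0.214, 0.242, 0.265, 0.228 and 0.296 in CKO, against 0.164, 0.177, 0.175, 0.213 and 0.211 in Flox. All CKO ratios lay above the Flox ratios, but CKO replicate 1, at 0.214, was only just above the highest Flox library, at 0.213. Of the 9 ratios of partner chains examined, this was the 1 without overlap, and no test was made. That of Itgam to Itgb2 was 0.816 ± 0.0707 in CKO and 0.896 ± 0.120 in Flox, and that of Itgax to Itgb2 was 0.276 ± 0.0672 and 0.302 ± 0.0184. The ratio of Itgae to Itgb7 overlapped, at 0.242 ± 0.0328 and 0.226 ± 0.0387. The median log2 fold change of the 7 tested leukocyte integrins was -0.16, and -0.066 without CKO replicate 1.

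**Figure D5:**
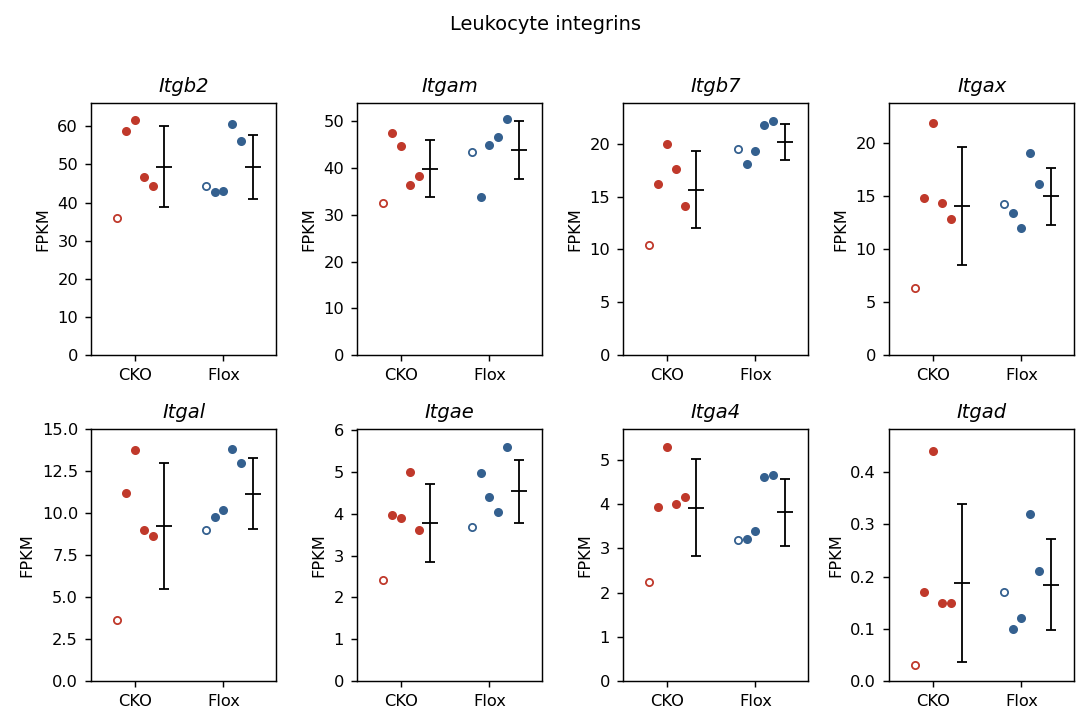
FPKM per library of the 8 leukocyte integrins; CKO left in red, Flox right in blue, replicate 1 of each group as an open circle, and the black bar is the mean with its SD (n = 5). CKO replicate 1 is the lowest of all 10 libraries in every panel, at 3.60 FPKM for Itgal and 10.4 FPKM for Itgb7.

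Related leukocyte chains share sequence, which limits how well 50-base reads tell them apart. In GENCODE M21 transcripts, 9.61% of the 50-base stretches of Itgax also occurred in Itgad and 9.47% of those of Itgad in Itgax, so the low Itgad values are uncertain. Of the 38 members, 34 shared no such stretch with another member. Counting any annotated gene on either strand, 23 of the 38 shared under 1% of their stretches. For Itga4 10.9% and for Nid2 8.04% also occurred in other genes, led by Cerkl and Rtraf, which are in the deposited table. For Itgam, 72.4% of the stretches also belonged to an overlapping annotated gene, Gm49368, and for Itga10, 32.0% belonged to Gm42957. Neither gene is in the deposited table, and no source used here says how the authors assigned such reads.

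Other genes of adhesion to the basement membrane were read from lists by role, and 0 passed in limma. Of 7 tested genes of hemidesmosomes and keratinocyte anchoring, 6 had a log2 fold change below 0, against 60.5% of all genes tested. The 1 above 0 was Col17a1, at 0.14. An unadjusted p under 0.05 was reached by 0 of the 7, against 15.1% of all genes tested, and the median was -0.093. Col7a1, the collagen of anchoring fibrils, was at 4.84 ± 1.46 FPKM in CKO, against 5.55 ± 1.10 FPKM in Flox, Frem1, a matrix protein under the epidermis, at 1.07 ± 0.315 and 1.26 ± 0.072, and Egflam, a dystroglycan ligand, at 1.43 ± 0.268 and 1.63 ± 0.184.

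Of 13 tested collagens and other basement membrane components, 1 reached an unadjusted p under 0.05, against 15.1% of all genes tested. The median was 0.094. The 1 gene was Smoc2, a calcium-binding matrix protein, at 80.4 ± 11.9 FPKM in CKO and 62.0 ± 4.63 FPKM in Flox. Its log2 fold change was 0.36 (SE 0.093, limma adjusted p = 0.141). Every CKO library lay above every Flox library for Smoc2, which held for 1.24% of all genes tested. Its relative Smoc1 was at 6.73 ± 1.56 and 5.55 ± 0.477 FPKM, and the proteoglycan Agrn at 10.5 ± 1.32 and 9.51 ± 0.552 FPKM. All 6 tested laminin receptors other than integrins had a log2 fold change above 0, against 39.5% of all genes tested. Their median was 0.072, and 1 reached an unadjusted p under 0.05, against 15.1% of all genes tested. Without CKO replicate 1 the median was 0.051, and Bcam, at 0.024 with it, was at -0.083. The 1 gene was Sdc4, and without CKO replicate 1 its unadjusted p in limma was 0.0747. Sdc4, a cell surface proteoglycan, was at 105 ± 5.04 FPKM in CKO, against 94.7 ± 7.74 FPKM in Flox (limma adjusted p = 0.293), the ribosomal protein and laminin binder Rpsa at 1120 ± 123 and 1040 ± 93.4, and dystroglycan, Dag1, at 27.5 ± 2.98 and 25.9 ± 3.34.

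Of 22 genes of integrin activation and focal adhesions, 14 had a log2 fold change below 0, a share near the 60.5% of all genes tested. Of these 22 genes 1 reached an unadjusted p under 0.05, against 15.1% of all genes tested, and the median was -0.030. The actin linker Vcl was at 13.9 ± 0.749 FPKM in CKO, against 15.9 ± 1.57 FPKM in Flox libraries (log2 fold change -0.18, SE 0.067, limma adjusted p = 0.261). The integrin activator Tln1 was at 36.1 ± 5.28 and 40.7 ± 5.20 FPKM, and Tns1, a focal adhesion protein, at 36.5 ± 7.93 and 30.3 ± 3.75. Among 13 tested ligands of integrins other than laminins the median was 0.012. Of these 13 genes, 3 reached an unadjusted p under 0.05, against 15.1% of all genes tested. Cdh1, the epithelial cadherin that the Itgae receptor binds, was at 46.0 ± 3.80 FPKM in CKO, against 55.6 ± 5.21 FPKM in Flox libraries (log2 fold change -0.27, SE 0.076, limma adjusted p = 0.166). The matrix protein Thbs1 was at 79.8 ± 17.3 and 57.0 ± 14.8 FPKM (limma adjusted p = 0.272), and Vtn, which encodes vitronectin, at 2.71 ± 0.498 and 2.16 ± 0.240 (limma adjusted p = 0.306). For all these genes except Smoc2 the CKO and Flox libraries overlapped.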

How the data were processed

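Poly(A) RNA of 10 mouse skin samples was read as single-end reads of 50 bases, per the labels' protocols. The authors deposited 1 table of FPKM per gene, per the file headers, and the aligner named in the submitters' processing notes is HISAT. Its version, the genome build, the annotation and the way reads were counted are unstated in these sources. Depth is unknown, and no counting interval is given.

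The 13186 of 19175 genes that reached 1 FPKM in 5 or more libraries were tested with limma-trend on log2(FPKM + 1) (limma 3.58.1, R 4.3.3, robust off, 5 CKO against 5 Flox, two-sided). Adjusted p is Benjamini-Hochberg over all genes tested, threshold 0.05. On simulated data with known changes, the test recovered 18% of those of 0.25 and 72% of those of 0.5 on the log2 scale. Small changes can thus be missed.

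Members and lists were chosen with earlier results of these data known. Every member was named, and values in each library were given for members at an unadjusted p under 0.05 or without overlap, and for the highest of each role. From each list of related genes, up to 3 of lowest p were named. Markers of each cell type were summed, and sums that bear on a result are printed. Trac was not analysed here, and 1 gene that the choice by symbol takes is not reported here. Alternatives were a pseudocount of 0.1, no filter, equal library totals, quantile normalization, array quality weights, the replicate number as a block and each library left out. Promoter windows came from RefSeq and transcripts from GENCODE M21.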

Additional observations from a re-analysis of the deposited data

Results flagged for a closer look

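Among the 76 groups of 5 libraries examined (38 members in CKO and in Flox), 3 had a library far from the others. Chance alone gives about 1 in 20 such groups. Itgb3 was at 10.66 FPKM in Flox replicate 5, against 6.24 to 7.27 FPKM in the other Flox libraries. Lamb2 was at 18.71 FPKM in Flox replicate 5, against 11.4 to 12.8 FPKM in the other Flox libraries. Hspg2 was at 22.4 FPKM in CKO replicate 5, against 14.3 to 15.85 FPKM in the other CKO libraries.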

How the results depend on the processing

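Over all genes tested, 6 rose and 8 fell at an adjusted p under 0.05 in limma. With array quality weights these were 30 and 60, with equal library totals 2 and 6, with no filter 1 and 2, and with 1 library left out 0 to 11 and 0 to 15. Genes without overlap and higher in CKO numbered 163, 107 with equal totals and 179 to 327 with 1 library left out. Those lower in CKO numbered 395, and 487 to 583 with 1 library left out.

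Of the members, 0 passed under any of the alternatives. Members without overlap and higher in CKO numbered 3, against 0 with equal totals, 5 with quantile normalization and 3 to 4 with 1 library left out, and those lower numbered 0 and 0 to 2. At an unadjusted p under 0.05, 5 to 8 members were higher and 1 to 4 lower with 1 library left out.

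Whether replicate numbers pair the samples is not stated in the sources used here. The correlations of same-numbered libraries were 0.11, -0.21, -0.027, -0.016 and 0.21 over 13186 genes. Only CKO replicate 5 correlated best with its own number, while Flox replicate 5 correlated best with CKO replicate 1. Such values cannot show whether same-numbered libraries were handled together. With the replicate number as a block, 0 and 0 genes passed.

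Of 576 member values recomputed over 16 settings, 42 changed sign, in 11 members whose intervals spanned 0. With array quality weights the log2 fold changes were 0.020 for Itga9, 0.023 for Lama4, 0.057 for Lamb1, 0.11 for Itgb2, 0.069 for Itgax, 0.034 for Nid2 and 0.047 for Itgb5. That of Itga9 was 0.0070 with quantile normalization, and that of Itga4 was -0.0017 with equal totals. With 1 library left out they ran from -0.071 to 0.20 for Hspg2, -0.084 to 0.16 for Itga4, -0.094 to 0.026 for Itga9, -0.34 to 0.077 for Itgax, -0.10 to 0.10 for Itgb2, -0.026 to 0.092 for Itgb4, -0.086 to 0.015 for Itgb5, -0.15 to 0.014 for Lama4, -0.089 to 0.059 for Lamb1, -0.031 to 0.14 for Lamc1 and -0.24 to 0.0019 for Nid2. The cause was not tested. Depth is unknown, so what it limits cannot be given.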
